A study of Mus musculus with 8 samples.

Results

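The homeostatic microglia genes are a set of 10 named genes that mark the resting, surveying state of microglia, the resident macrophages of the brain: P2ry12, P2ry13, Cx3cr1, Csf1r, Gpr34, Olfml3, Selplg, Fcrls, Siglech and Mertk. All probe sets with 1 of these symbols were taken. P2ry13 and Siglech were not analysed here, because no probe set carried their symbol alone. The other 8 genes were measured by 11 of the 20380 probe sets with 1 gene symbol, and they make up 8 of 12393 genes.

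Total RNA of the right hippocampus was measured in 8 mice, with 1 Affymetrix array per animal. The 4 normal mice carried 1 mutant and 1 intact copy of Gusb (mps/+), and the 4 mutant mice carried 2 mutant copies (mps/mps). Gusb encodes the lysosomal enzyme beta-glucuronidase, whose loss causes mucopolysaccharidosis VII, a storage disease of glycosaminoglycans. Both groups shared the B6.C-H2-Kbm1/ByBir background and the same housing, so the normal mice were carriers and not wild type. The allele is carried in all tissues, so changes within microglia cannot be told apart from responses to other cells. Normals 1 to 4 were 38.3, 25.6, 19.6 and 14.6 weeks old, and mutants 1 to 4 were 38.3, 25.6, 25.6 and 19.6 weeks old. In each group, animals 1 and 4 were female and animals 2 and 3 were male. Values are log2 expression values, so a difference of 1 is a doubling.

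Microglia hold their surveying state through signals from neurons, growth factors and TGF-beta, under transcription factors such as PU.1 (the product of Spi1). When they meet damage or undigested material they take up an activated state, and in many models of brain disease several homeostatic genes are then expressed less while phagocytic and lysosomal genes are expressed more. P2ry12 and Cx3cr1 are commonly used to follow that shift.

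The arrays differed in more than genotype. A probe set for Gusb had values of 6.56, 5.40, 5.83 and 6.02 in normals 1 to 4 and 4.51, 4.71, 4.36 and 4.62 in mutants 1 to 4, so each mutant was below each normal, and the gene's other probe set overlapped between the groups (5.12 to 6.40 against 5.55 to 6.59). With intensities in place of counts, precision here rests on having 4 animals per group. The 15 bacterial control probe sets, for transcripts that mouse tissue lacks, reached at most 3.72. The 3 prime minus 5 prime difference of the control probe sets for actin and Gapdh, a sign of RNA breakdown, was 3.58 in normal 1 and 0.22 to 0.75 in the other arrays. Although the tissue is labelled hippocampus, the mean of 6 thalamic markers lay between 6.63 and 9.17 in the normal arrays and between 6.24 and 9.86 in the mutant arrays. For 5 striatal markers these bounds were 7.84 and 10.96 in normals and 6.84 and 8.17 in mutants. The mean of 5 hippocampal field markers lay between 5.66 and 6.66 in normals and between 5.25 and 7.91 in mutants, where mutant 3 was highest.

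The members did not move together. Selplg was lower in every mutant than in every normal, Fcrls was higher in every mutant than in every normal, and the remaining 6 genes overlapped between the groups. None of the 8 passed an adjusted p of 0.05 in limma, a linear model fitted to all genes with Benjamini-Hochberg adjustment, against 0.105% of all genes (0.0968% higher and 0.00807% lower in mutants). Of the 11 probe sets, 0 passed over all probe sets, against 0.0883% of these. At an unadjusted p under 0.05 there were 2 members, Fcrls above and Selplg below, against 6.53% of all genes (4.05% higher and 2.48% lower). The groups did not overlap for 2 of 8 members, against 3.88% of all genes (2.27% with all mutants above all normals and 1.61% with all below) and 3.61% of all probe sets. Of the 8, 5 had lower and 3 had higher means in mutants, with a median log2 change of -0.13 against 0.01 over all genes, of which 52.5% had higher means. In bulk tissue, fewer microglia and less RNA per microglial cell cannot be told apart.

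**Figure D1:**
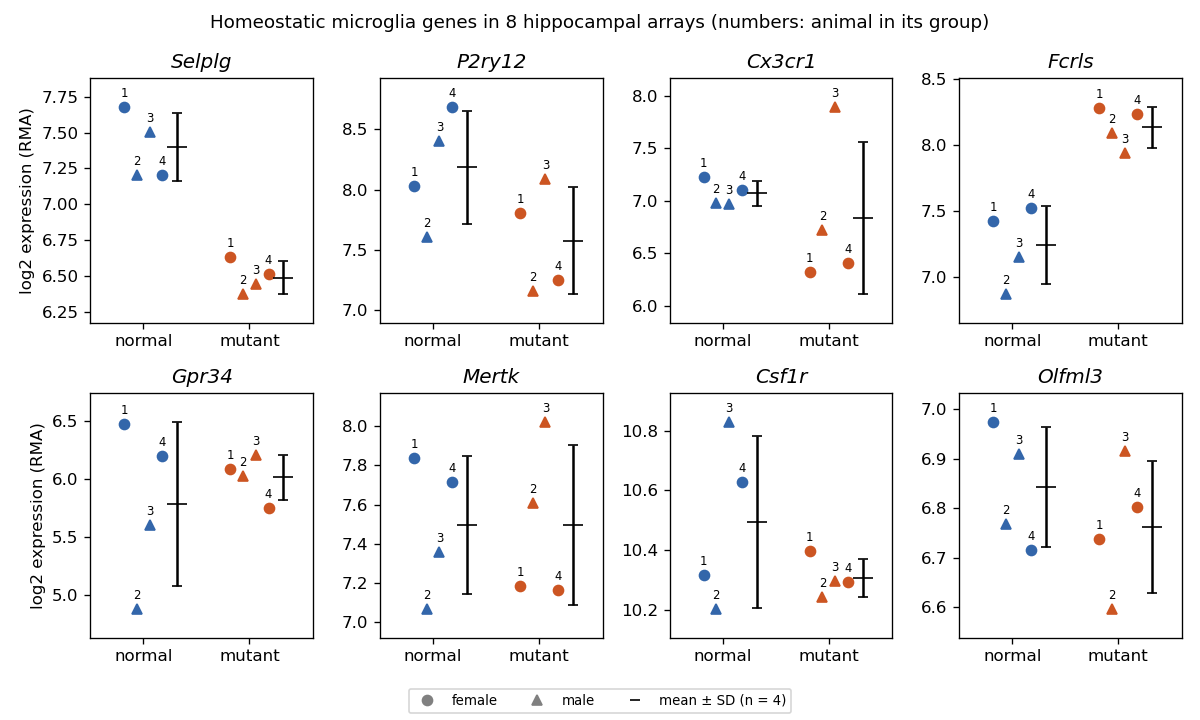
Log2 expression of the 8 measured homeostatic microglia genes in each array, normal mice in blue and mutant mice in orange, with circles for females, triangles for males, the animal's number above each point, and the mean ± SD (n = 4) in black. The vertical axes do not start at 0. Selplg and Fcrls separate the groups completely, Fcrls upward and Selplg downward, while the other genes overlap.

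Among the genes with lower means, Selplg stood farthest apart (1.88-fold). It encodes PSGL-1, the selectin ligand of leukocytes, and is also expressed by microglia. Selplg was at 7.68, 7.20, 7.51 and 7.21 in normals 1 to 4 and at 6.64, 6.37, 6.44 and 6.51 in mutants 1 to 4. The highest mutant lay 0.57 below the lowest normal. The group means were 7.40 ± 0.24 and 6.49 ± 0.11 (SD, n = 4 each), a log2 change of -0.91 ± 0.14 (SE, 95% interval -1.22 to -0.59), or 1.88-fold lower in mutants. The gene ranked 21 of 12393 by p. Its limma adjusted p was 0.0801, and the two-sided exact permutation p over the 70 arrangements of the arrays was 0.0286, the smallest the design allows. The adjusted p was 0.0385 after a further quantile normalization, 0.0451 after median centring and 0.0163 with array weights, and the gene did not pass under the other 19 alternatives. The mean of 5 striatal markers was 10.74, 7.84, 10.96 and 9.92 in normals 1 to 4 and 8.17, 7.17, 6.84 and 7.49 in mutants 1 to 4. All 5 had lower means in mutants, with a median of -2.37. None passed in limma, and 5 were lower at an unadjusted p under 0.05, against 2.48% of all genes. Whether striatal content had a part in the Selplg difference was not tested.

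Because Selplg is also a leukocyte gene, markers of blood cells were read beside it. Of 8 lymphocyte markers, 6 had lower means in mutants and 0 passed in limma. There were 2 lower and 0 higher at an unadjusted limma p under 0.05, against 2.48% and 4.05% of all genes. Their mean level lay between 4.37 and 4.88 in normals and between 4.15 and 4.48 in mutants. The T and B cell genes Cd3g and Cd79b were never above the bacterial controls, but other defining genes were. Cd3e lay between 4.96 and 5.16 in all arrays, Cd79a between 3.64 and 4.32 and Cd8a between 3.69 and 4.14, close to the controls' highest value of 3.72. Cd4 was at -0.80, with all mutants (5.42 to 5.58) below all normals (5.68 to 7.02). The immunoglobulin gene Ighm was at -1.09 with overlap (limma adjusted p = 0.625 for Cd4 and 0.701 for Ighm). Their part in the Selplg difference was not tested.

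P2ry12, the ADP receptor by which microglial processes find injured cells, had a lower mean in mutants with overlap. It was at 8.03, 7.61, 8.40 and 8.69 in normals 1 to 4 and at 7.80, 7.16, 8.09 and 7.25 in mutants 1 to 4. Mutants 2 and 4 lay below all normals, and mutants 1 and 3 lay among them. The means were 8.18 ± 0.47 and 7.58 ± 0.45 (SD, n = 4 each), a change of -0.61 ± 0.28 (SE, 95% interval -1.25 to 0.038, limma adjusted p = 0.776, two-sided exact permutation p = 0.143).

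Within each group, P2ry12 ran in the reverse order of the thalamic markers. In normals 4, 3, 1 and 2 the thalamic mean was 6.63, 7.09, 8.35 and 9.17, where P2ry12 was 8.69, 8.40, 8.03 and 7.61. In mutants 3, 1, 4 and 2 the thalamic mean was 6.24, 7.85, 9.75 and 9.86, where P2ry12 was 8.09, 7.80, 7.25 and 7.16. With the thalamic mean as a covariate, chosen after these values were seen, the P2ry12 change was -0.42 (limma adjusted p = 0.464). Without the 3 arrays highest in thalamic markers it was -0.43 (limma adjusted p = 0.983). Whether regional content produced the order was not tested.

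**Figure D2:**
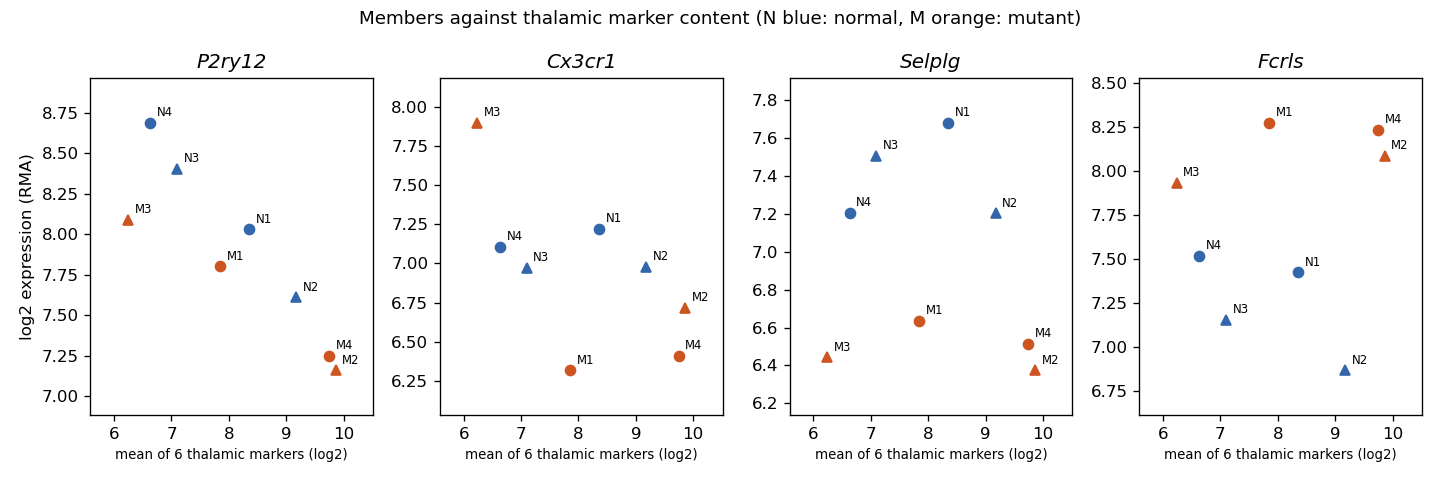
Log2 expression of P2ry12, Cx3cr1, Selplg and Fcrls (vertical axes, not starting at 0) against the mean log2 expression of 6 thalamic markers (horizontal axis) in each array, N for normal in blue and M for mutant in orange, circles for females and triangles for males. P2ry12 runs from 8.69 in normal 4 down to 7.16 in mutant 2 as the thalamic mean goes from 6.63 to 9.86, while Selplg and Fcrls separate by genotype at low and high thalamic means. Striatal markers are not drawn.

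Over all genes, the profiles nearest to P2ry12 across the 8 arrays, by root mean square difference after centring each gene, were Ssbp2 (0.142), Smad3 (0.146), Pcdh7 (0.168), S1pr1 (0.169) and Gda (0.184). Their changes in mutants ran from -0.70 for Gda to -0.41 for Ssbp2, and none passed in limma (adjusted p from 0.693 to 0.887). Among the members, the nearest to P2ry12 was Csf1r at 0.371, while Cx3cr1 and Mertk were nearest to each other (0.292), as were Csf1r and Olfml3 (0.212).

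Cx3cr1, the receptor for the neuronal chemokine fractalkine (Cx3cl1), was measured by 2 probe sets. On the brighter probe set it was at 7.22, 6.98, 6.97 and 7.11 in normals 1 to 4 and at 6.32, 6.72, 7.90 and 6.41 in mutants 1 to 4. Mutants 1, 2 and 4 lay below all normals, and mutant 3 lay above them all. The SD was 0.12 in normals and 0.73 in mutants (n = 4 each), and the change was -0.23 ± 0.32 (SE, 95% interval -0.96 to 0.50, limma adjusted p = 0.944). Without mutant 3, which also had the highest hippocampal field mean (7.91) and the lowest thalamic mean (6.24), the change was -0.59 (limma adjusted p = 0.391). Without mutant 1 or mutant 4 it was -0.061 or -0.092 (limma adjusted p = 0.994 and 1.00). Without the 3 arrays highest in thalamic markers it was 0.0077.

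The dimmer Cx3cr1 probe set was at 3.47, 4.46, 5.09 and 4.37 in normals and at 3.60, 3.65, 3.78 and 3.67 in mutants. In normal 1 and in mutants 1, 2 and 4 it was no higher than the bacterial controls, which reached 3.72. Its change of -0.67 ± 0.30 (SE) did not pass over all probe sets (limma adjusted p = 0.832). A level this close to background gives no size for the change.

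Csf1r, the receptor for CSF1 and IL-34 on which microglial survival depends, was measured by 3 probe sets, none of which separated the groups. The brightest was at 10.3, 10.2, 10.8 and 10.6 in normals 1 to 4 and at 10.4, 10.2, 10.3 and 10.3 in mutants 1 to 4. Its change was -0.19 ± 0.15 (SE, 95% interval -0.53 to 0.16, limma adjusted p = 0.907). Over all probe sets, the differences on the other 2 probe sets of the gene were -0.053 (95% interval -0.40 to 0.30) and 0.079 (95% interval -0.20 to 0.35). The 3 estimates differed in sign, and each interval held 0.

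Olfml3, a secreted olfactomedin-like protein made by microglia, varied least. It was at 6.98, 6.77, 6.91 and 6.72 in normals 1 to 4 and at 6.74, 6.60, 6.92 and 6.80 in mutants 1 to 4. The change was -0.080 ± 0.11 (SE, 95% interval -0.34 to 0.18, limma adjusted p = 0.945).

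Fcrls led the genes with higher means. It encodes an Fc receptor-like scavenger receptor that separates microglia from most other macrophages in mice. Fcrls was at 7.42, 6.87, 7.15 and 7.52 in normals 1 to 4 and at 8.27, 8.09, 7.93 and 8.23 in mutants 1 to 4. The lowest mutant lay 0.42 above the highest normal. The means were 7.24 ± 0.29 and 8.13 ± 0.16 (SD, n = 4 each), a change of 0.89 ± 0.16 (SE, 95% interval 0.52 to 1.27), or 1.86-fold higher in mutants. It ranked 37 of 12393 by p, with a limma adjusted p of 0.160 and a two-sided exact permutation p of 0.0286. With array weights, which count more variable arrays less, its adjusted p was 0.0207.

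Markers of monocytes and of the macrophages at the brain's borders were read beside Fcrls. Of 14 measured border macrophage and monocyte genes, 6 had higher and 8 had lower means in mutants, and Ms4a7 rose (1.88, limma adjusted p = 0.0239). The list mean lay between 3.71 and 4.78 in normals and between 4.14 and 4.52 in mutants. The monocyte genes Ccr2, Plac8 and Chil3 were never above the bacterial controls, and the remaining border macrophage genes went both ways. Cd163 was at -1.08 and Lyve1 at -0.20, while Stab1 was at 0.69, Mrc1 at 0.48 and F13a1 at 0.32, none past the threshold (limma adjusted p from 0.313 to 0.930). All mutants lay above all normals for Stab1 (6.06 to 6.61 against 5.20 to 5.84). For Cd163, all mutants lay below all normals (2.74 to 3.20 against 3.45 to 4.64). These Cd163 values in mutants were under the highest value of the bacterial controls. Lyve1, at 3.25 to 3.83 over all arrays, lay close to that value. The part of these cells in the Fcrls difference was not tested.

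Promoters of 3 members are printed, Fcrls with a higher mean in mutants and P2ry12 and Cx3cr1 with lower means. They are RefSeq windows of GRCm38.p6, each 300 bases long, from 250 bases before a gene's start to 50 bases after, all on the minus strand and written 5′ to 3′. The Fcrls window, chr3:87263475-87263774, is set on a start inside the outer bounds of the gene. The P2ry12 window is chr3:59262936-59263235 and the Cx3cr1 window is chr9:120068247-120068546. Capitals mark GAGGAA, a core of the sites bound by PU.1.
Fcrls: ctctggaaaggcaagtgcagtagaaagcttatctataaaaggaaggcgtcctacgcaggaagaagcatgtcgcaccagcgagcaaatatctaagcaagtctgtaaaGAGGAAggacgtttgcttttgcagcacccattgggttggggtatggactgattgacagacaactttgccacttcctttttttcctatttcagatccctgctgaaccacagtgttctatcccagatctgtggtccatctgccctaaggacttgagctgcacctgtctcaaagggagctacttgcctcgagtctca
P2ry12: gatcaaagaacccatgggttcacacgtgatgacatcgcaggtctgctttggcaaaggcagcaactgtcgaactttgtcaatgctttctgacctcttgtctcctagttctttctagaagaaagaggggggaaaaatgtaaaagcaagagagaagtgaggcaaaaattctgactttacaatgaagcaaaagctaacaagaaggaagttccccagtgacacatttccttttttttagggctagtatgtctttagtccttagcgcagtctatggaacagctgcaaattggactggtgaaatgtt
Cx3cr1: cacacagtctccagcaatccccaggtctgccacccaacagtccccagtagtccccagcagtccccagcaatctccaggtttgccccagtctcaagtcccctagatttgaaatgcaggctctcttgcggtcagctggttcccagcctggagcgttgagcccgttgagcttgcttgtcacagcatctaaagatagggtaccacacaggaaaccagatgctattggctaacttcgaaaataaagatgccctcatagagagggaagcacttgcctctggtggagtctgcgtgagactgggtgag
On either strand, GAGGAA was found in the Fcrls window at 1 place, beginning at -144 from the start, and not in the P2ry12 or Cx3cr1 windows. Among members whose windows are not printed, Mertk and Olfml3 lacked it, while P2ry13 and Siglech, without expression values here, held 1 each. GAGGAA is a common motif, held by 28.3% of the 32851 promoter windows. A match is a description of letters and not a shown site.

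Gpr34, a receptor for lysophosphatidylserine, was at 6.47, 4.88, 5.61 and 6.20 in normals 1 to 4 and at 6.09, 6.02, 6.21 and 5.75 in mutants 1 to 4. Normal 2 lay lowest, and all 4 mutants lay inside the range of the normals. The change was 0.23 ± 0.32 (SE, 95% interval -0.50 to 0.95, limma adjusted p = 0.944). Without normal 2 it was -0.076.

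Mertk, the receptor tyrosine kinase with which phagocytes bind dying cells through Gas6 and protein S, had equal group means. It was at 7.84, 7.06, 7.36 and 7.72 in normals 1 to 4 and at 7.18, 7.61, 8.02 and 7.16 in mutants 1 to 4. The means were 7.49 ± 0.35 and 7.49 ± 0.41 (SD, n = 4 each), with a 95% interval of the change from -0.55 to 0.55 (limma adjusted p = 1.00). An interval of that width does not show that the groups were alike.

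**Figure D3:**
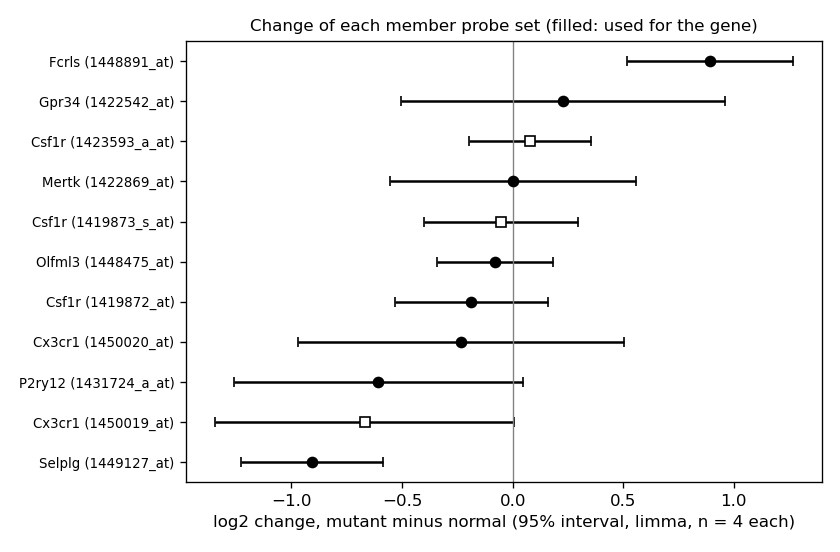
Log2 change, mutant minus normal, with its 95% interval from limma (n = 4 arrays in each group) for all 11 probe sets of the 8 measured genes, filled circles for the probe set used for a gene and open squares for the others. Fcrls at 0.89 and Selplg at -0.91 have intervals that leave out 0, and the 3 Csf1r probe sets lie on both sides of 0.

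The genotype differences of Mertk and Gpr34 had opposite signs in the sexes. In females, Mertk was at 7.84 and 7.72 in normals and at 7.18 and 7.16 in mutants, whereas in males it was at 7.06 and 7.36 in normals and at 7.61 and 8.02 in mutants. Neither sex overlapped between genotypes. The mutant minus normal differences were -0.60 in females and 0.60 in males. The gap between them of 1.21 ± 0.28 (SE) had an unadjusted p of 0.00398 in limma and did not pass (limma adjusted p = 0.340). For Gpr34, which was at 6.47 and 6.20 against 6.09 and 5.75 in females and at 4.88 and 5.61 against 6.02 and 6.21 in males, they were -0.42 and 0.87, a gap of 1.29 ± 0.39 (SE, limma adjusted p = 0.347). For Cx3cr1 the changes were -0.80 and 0.33 (limma adjusted p = 0.451), with mutant 3 as the high male. Across all genes 0 passed this interaction test and 1419 (11.5%) had an unadjusted p under 0.05, with only 2 animals of each sex in each group. Among the 4 normals, the females were the oldest and the youngest animal. The older of them, normal 1, had the largest 3 prime minus 5 prime difference of all arrays (3.58). Selplg differed by -0.87 in females and by -0.95 in males, and Fcrls by 0.78 and 1.00.

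Age could be matched for part of the animals. At 38.3 weeks, the mutant minus normal difference was -1.04 for Selplg and 0.85 for Fcrls, in 1 female of each group. At 25.6 weeks, mutants 2 and 3 differed from normal 2, all males, by -0.83 and -0.76 for Selplg and by 1.22 and 1.07 for Fcrls. At 19.6 weeks, mutant 4 differed from normal 3 by -0.99 for Selplg and by 1.08 for Fcrls, but the sexes differed. Each same-age difference had the sign of the group difference for both genes. Complete separation of the groups fixes that sign for any pair, so the matching does not test age. The P2ry12 differences varied in sign, with -0.23 at 38.3 weeks, -0.45 and 0.48 at 25.6 weeks and -1.15 at 19.6 weeks. With age as a covariate the changes were -0.94 for Selplg, 0.89 for Fcrls and -0.59 for P2ry12. Normal 4, the youngest animal, had no mutant of its age.

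General microglia and macrophage genes were higher in the same mutants. Of 18, 17 had higher means and 2 rose past the threshold, Mpeg1 (2.07) and Adgre1 (1.16), which encode a pore-forming protein and a macrophage surface receptor (limma adjusted p = 0.00158 and 0.0228). The list mean was 6.98, 7.31, 7.32 and 6.73 in normals 1 to 4 and 8.15, 7.99, 7.93 and 7.99 in mutants 1 to 4. Of 20 activated microglia genes, 17 had higher means and 5 rose (Gpnmb, Cst7, Clec7a, Lyz2 and Cd68), with list means of 6.92 to 7.24 in normals and 8.33 to 8.57 in mutants. The median changes of these lists were 0.85 and 1.09, against -0.13 for the members.

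Set against the general list within each array, 4 of the 8 members had all mutants below all normals (Selplg, P2ry12, Csf1r and Olfml3) and the other 4 overlapped. Selplg minus the list mean was 0.70, -0.11, 0.18 and 0.48 in normals 1 to 4 and -1.52, -1.62, -1.48 and -1.48 in mutants 1 to 4. P2ry12 minus the list mean was 1.05, 0.30, 1.08 and 1.96 in normals and -0.35, -0.83, 0.16 and -0.74 in mutants, so that all mutants lay below all normals on this scale. For Csf1r and Olfml3 the mean differences between the groups were -1.12 and -1.01. Cx3cr1 and Mertk had 3 of 4 mutants below all normals, with mean differences of -1.16 and -0.93. For Gpr34, no mutant lay outside the normals and the mean difference was -0.70. Fcrls minus the list mean lay between -0.44 and 0.79 in normals and between 0.0069 and 0.24 in mutants. Its mean difference was -0.038, so the complete separation of Fcrls by level was absent on this scale. The list mean itself was higher in all mutants (7.93 to 8.15) than in all normals (6.73 to 7.32), so a gene of unchanged level falls on this scale. The list mean was also lower in normals 1 and 4 (6.98 and 6.73) than in normals 2 and 3 (7.31 and 7.32). That raises the differences in normals 1 and 4. Csf1r and Olfml3 overlapped between the groups by level. The share of all genes that separate on this scale was not computed, so the count of 4 is not a result about the members. These differences carry the list's change and are a description of unequal change within an array.

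**Figure D4:**
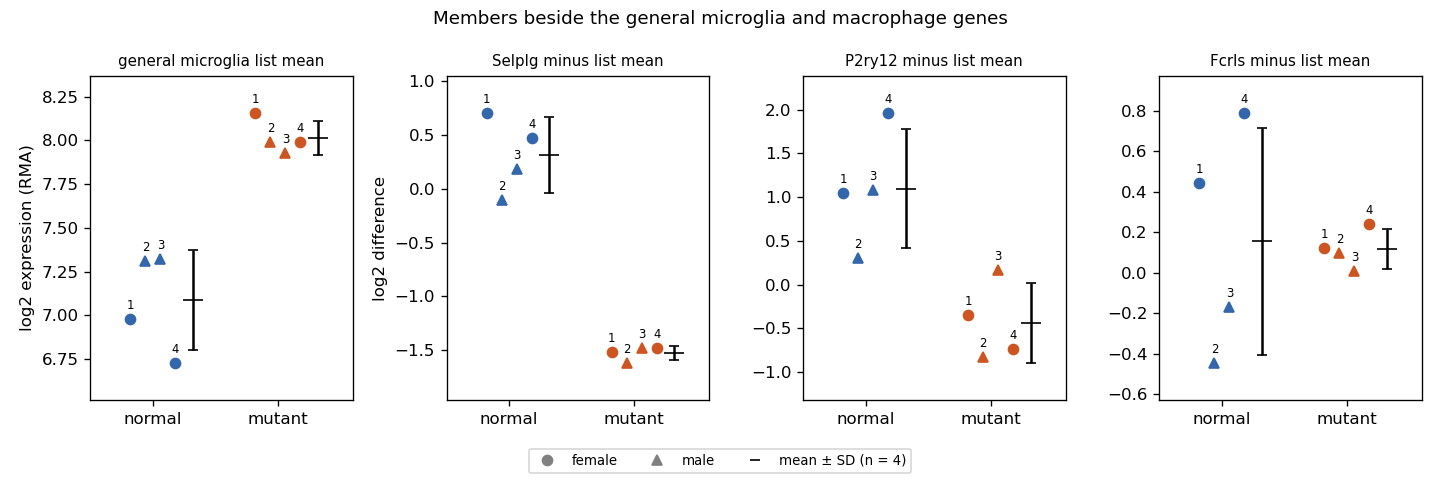
Mean log2 expression of 18 general microglia and macrophage genes (left) and the log2 difference of Selplg, P2ry12 and Fcrls from that mean (right panels) in each array, normal in blue and mutant in orange, circles for females, triangles for males, with the mean ± SD (n = 4) in black. Selplg and P2ry12 are lower relative to the list in all mutants than in all normals, while Fcrls overlaps. The list mean itself is higher in all mutants than in all normals.

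Other homeostatic microglia genes also went in both directions. Of 19 measured, 14 had higher and 5 had lower means, with a median of 0.16, and 0 passed in limma. There were 3 higher and 2 lower at an unadjusted limma p under 0.05, against 4.05% and 2.48% of all genes. These are values of whole tissue, so the cells that gave each signal cannot be told apart. Slc2a5, the fructose transporter gene of microglia, was at 4.95 to 5.13 in normals and at 4.39 to 4.59 in mutants (-0.50 ± 0.10 SE, limma adjusted p = 0.215). Lag3, which encodes an inhibitory receptor, was at 4.16 to 4.87 in normals and 5.23 to 5.94 in mutants (1.07 ± 0.20 SE, limma adjusted p = 0.182). Tmem119, a microglial surface marker, and Sall1, a transcription factor gene of microglial identity, had changes of -0.25 and -0.059. In the other direction, Ltc4s, a leukotriene synthase gene, was at 1.08 with overlap, and the integrin gene Itgb5 was at 0.48, with all mutants (7.78 to 8.28) above all normals (7.56 to 7.71). Crybb1, a crystallin gene, was at -0.55. None of these 5 passed (limma adjusted p from 0.434 to 0.981).

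The ligands, adaptors and partners of the members were read in the same way. Of 16 measured, 9 had higher and 7 had lower means, with 0 past the threshold in limma. At an unadjusted limma p under 0.05, 5 were higher and 0 lower, against 4.05% and 2.48% of all genes. For 4 of the 16, all mutants lay above all normals, against 2.27% of all genes. Tyrobp, the signalling adaptor that serves Siglec-H and Trem2, went from 7.55 to 9.70 on average (2.16 ± 0.51 SE, limma adjusted p = 0.327). It was at 8.27, 8.14, 7.96 and 5.83 in normals 1 to 4, so normal 4 lowered the normal mean. The mutants lay between 9.28 and 10.06. The Mertk ligand genes Gas6 and Pros1 were at 0.51 and 0.63, and the related receptor gene Axl at 0.54 (limma adjusted p = 0.472, 0.592 and 0.536). All mutants lay above all normals for Gas6 (9.42 to 9.75 against 8.88 to 9.32) and Axl (7.87 to 8.48 against 7.28 to 7.76). Pros1 overlapped. Of the Csf1r ligands, Csf1 was at 0.43, with all mutants (7.29 to 7.37) above all normals (6.67 to 7.17), and Il34 at -0.36 with overlap. The fractalkine gene Cx3cl1 was at -0.25 (limma adjusted p = 0.910). The Selplg partners Selp and Sele were near background, with Selp at 3.35 to 3.73 over all arrays and Sele never above the bacterial controls.

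Transcription factors and TGF-beta signalling genes of microglia held 14 measured genes, of which 8 had higher means and 0 passed in limma. There were 3 higher and 0 lower at an unadjusted limma p under 0.05, against 4.05% and 2.48% of all genes. Tgfb1, the cytokine gene that sustains the homeostatic state, was at 3.69 to 4.13 in normals and 4.45 to 4.85 in mutants (0.73 ± 0.14 SE, limma adjusted p = 0.193). Cebpa, a myeloid transcription factor gene, was at 0.72 (limma adjusted p = 0.570). Spi1 and Irf8 were at 0.16 and 0.50, and Smad3 at -0.46.

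Markers of other brain cells were read beside the members. All 7 oligodendrocyte markers had lower means, with a median of -0.82. For 5 of them all mutants lay below all normals, against 1.61% of all genes. Of 8 astrocyte markers, 7 had higher means, and Gfap rose (2.27, limma adjusted p = 0.00787). All 6 meningeal fibroblast, all 8 endothelial and mural and all 5 choroid plexus markers had higher means (medians of 0.66, 0.25 and 1.70). Of 8 neuron markers 6 had lower means, and all 4 oligodendrocyte precursor markers did (medians of -0.060 and -0.14). Gfap was the single gene of these lists to pass in limma. Their list means lay at 10.14 to 10.63 in normals against 9.03 to 9.81 in mutants for oligodendrocytes, and at 8.80 to 9.12 against 9.44 to 9.49 for astrocytes. The part of this cell content in the members' differences was not tested.

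Normal 1, the array with the largest 3 prime minus 5 prime difference, was the highest of all arrays for 3 of 8 members (Gpr34, Olfml3 and Selplg), and normal 2 was the lowest for 4 (Csf1r, Gpr34, Fcrls and Mertk). Without normal 1 the changes were -0.81 for Selplg and 0.95 for Fcrls (limma adjusted p = 0.104 and 0.154). Without the 3 arrays highest in thalamic markers they were -0.92 and 0.74 (adjusted p = 0.551 and 0.697). Without mutants 1 and 3, whose choroid plexus means of 9.12 and 8.11 stood above the 5.19 to 6.40 of the other arrays, they were -0.96 and 0.92 (adjusted p = 0.436 and 0.528). The number of members past the threshold was 0 in each of these fits, which used limma on fewer arrays.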

How the data were processed

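The deposited table held log2 values for each probe set. The authors made them with RMA, which corrects background, normalizes between arrays and summarises probes, and the submitters' processing notes also name GCOS 1.4. The genome build is not given in the sources used here. Of 22690 probe sets, 64 were controls, 691 carried several symbols and 1555 listed none, and these were not used for genes. For the 4956 genes with several probe sets, the probe set with the highest overall mean stood for the gene. No dim gene was removed.

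The comparison of the groups used lmFit and eBayes of limma 3.58.1 under R 4.3.3 (Benjamini-Hochberg adjustment, threshold 0.05) over all 12393 genes, and over all probe sets with 1 symbol. The fit was tested on simulated data. Single values used the exact permutation test over samples. The naming rule took all members, the genes past the threshold and the 2 with the smallest p of each list, and the nearest profiles. Other list genes were named for their role or to show both directions, after their values were seen, and marker lists of neurons, other glia, vessels and brain regions are given by counts or ranges. The members and lists were chosen with earlier results of these data known. Each array was a different animal, and animals carried no shared replicate number. Alternatives changed the probe set rule, filter, scaling, weights, covariates, age block and animals. Figures were drawn with Python 3.11.15.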

Additional observations from a re-analysis of the deposited data

Results flagged for a closer look

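Gpr34 and Mertk were flagged because both female mutants lay below both female normals and both male mutants lay above both male normals. The share of all genes with that pattern was not computed, and 11.5% of all genes had an unadjusted p under 0.05 in the limma interaction test. Normal 2, a male, was the lowest of all arrays for both genes. Normal 1, a female, was the highest of all arrays for Gpr34 (6.47) and the highest normal for Mertk (7.84). Its 3 prime minus 5 prime difference, a sign of RNA breakdown, was the largest of all arrays (3.58). The change in males minus the change in females was 1.29 for Gpr34 (-0.42 in females, 0.87 in males) and 1.21 for Mertk (-0.60 in females, 0.60 in males). Neither difference passed the interaction test in limma over all genes (adjusted p = 0.347 and 0.340), which rests on 2 animals of each sex in each group.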

How the results depend on the processing

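Selplg was lower and Fcrls higher in mutants under all 22 alternatives, with changes from -0.97 to -0.81 and from 0.74 to 1.02. The number of members past the threshold was 1 after a further quantile normalization, 1 after median centring (Selplg in both) and 2 with array weights (Selplg and Fcrls), and 0 in the other fits, those without each animal in turn included. Median centring moved the median of all genes from 0.011 to -0.047. P2ry12 was lower under its 21 alternatives (-0.98 to -0.42). Csf1r and Olfml3 also kept their sign.

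Gpr34 turned to -0.076 without normal 2 (up to 0.46 without normal 1), and Cx3cr1 to 0.0077 without the 3 arrays highest in thalamic markers. Mertk, at 0.00056, had no settled sign. It was -0.053 after quantile normalization, -0.058 after median centring, -0.027 with array weights, -0.0041 with age and -0.0059 with age and sex as covariates. It was -0.14 and -0.045 without normals 2 and 3, -0.037 and -0.18 without mutants 2 and 3, and from -0.18 to 0.12 over the fits without 1 animal. It was -0.033 without the 3 arrays high in thalamic markers and -0.11 without mutants 1 and 3. The cause of these turns was not tested. The last 2 settings, the thalamic covariate and age with sex were chosen after seeing the data. Signal near background limits the dimmer Cx3cr1 probe set. No paired analysis was possible because no label gives a replicate number shared by a mutant and a normal. When age group entered limma as a random block, the changes were -0.93 for Selplg and 0.82 for Fcrls (limma adjusted p = 0.165 and 0.390).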
